A study of Mus musculus with 12 samples.

Results

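The Nrf2 antioxidant genes described here are 10 genes chosen by name: Nfe2l2, Keap1, Nqo1, Gclc, Gclm, Txnrd1, Srxn1, Gsr, Prdx1 and Gstm1. All 10 were on the array and tested, out of 20026 gene names tested. They were carried by 13 of the 55681 features of the array, and all 13 passed the filter on dim signal. RNA was measured in the aorta of 12 C57BL/6J mice on day 3, with 1 array per mouse and 3 mice in each of 4 groups. DMSO mice received only the vehicle, dimethylsulfoxide, and rapamycin mice received the mTOR inhibitor rapamycin at 2 mg/kg/day in that vehicle. BA+DMSO mice received the challenge, which was beta-aminopropionitrile (BAPN), an inhibitor of collagen crosslinking, at 150 mg/kg/day and angiotensin II (AngII) at 1 µg/kg/min, together with the vehicle. BA+rapamycin mice received the same challenge with rapamycin at 2 mg/kg/day. By these records all 4 groups had DMSO. The study's methods give male adult mice, osmotic pumps for BAPN and AngII, daily intraperitoneal injection of rapamycin or DMSO, and a piece of aorta from above the right renal artery. DMSO sample titles start with Pre, which the study uses for aortas taken ahead of the challenge, while the series record places all 4 groups on day 3. If the titles hold, differences from DMSO also include the vehicle and the time, which cannot be told apart here.

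Nfe2l2 encodes Nrf2, a transcription factor that is made all the time and kept scarce by Keap1, an adaptor that hands it to a Cul3 ubiquitin ligase for breakdown. Oxidants and electrophiles modify cysteines of Keap1, Nrf2 then builds up, pairs with a small Maf protein and binds antioxidant response elements near its target genes. The targets make and use glutathione (Gclc, Gclm, Gsr, Gstm1), run the thioredoxin and peroxiredoxin cycle (Txnrd1, Prdx1, Srxn1) and reduce quinones (Nqo1). AngII is known to drive superoxide production by NADPH oxidases in the vessel wall, so these genes are often followed there. The control of Nrf2 is mainly on the protein, which arrays do not measure.

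RefSeq promoter windows (GRCm38.p6, 250 bases before to 50 bases from each start) were at hand for 8 of the 10 genes, all but Gclc and Gsr. The core of the antioxidant response element was searched as the letters TGACNNNGC on both strands, and 12.4% of all 32851 windows held it. Among the 11 windows of the 8 genes, 5 held it, 1 each for Nfe2l2, Gclm, Txnrd1, Srxn1 and Prdx1. The match of Srxn1, GCTAGGTCA, began at base 29 of the transcript. The match of Txnrd1, GCTTTGTCA, lay before the start, in 1 of its 3 windows. The match of Prdx1, GCTGAGTCA, holds the 7 letters TGAGTCA, which are the AP-1 motif TGACTCA on the other strand and occur on either strand in 5.20% of all windows. No window of Keap1, Nqo1 or Gstm1 held these letters, which says nothing of elements elsewhere. The 250 bases before the start are shown for 3 genes with a match (in capitals) that were lower with the challenge under rapamycin on at least 1 probe, and for Nqo1, lower in both challenge comparisons, as the case without one. Their spans are chr2:75704664-75704913 on the minus strand for Nfe2l2, chr3:122245307-122245556 on the plus strand for Gclm, chr4:116685349-116685598 on the plus strand for Prdx1 and chr8:107403206-107403455 on the minus strand for Nqo1.
Nfe2l2: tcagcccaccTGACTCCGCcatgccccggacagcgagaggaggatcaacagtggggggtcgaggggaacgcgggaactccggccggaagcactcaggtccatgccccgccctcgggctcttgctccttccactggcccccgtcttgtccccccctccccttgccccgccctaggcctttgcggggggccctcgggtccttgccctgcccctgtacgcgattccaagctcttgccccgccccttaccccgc
Gclm: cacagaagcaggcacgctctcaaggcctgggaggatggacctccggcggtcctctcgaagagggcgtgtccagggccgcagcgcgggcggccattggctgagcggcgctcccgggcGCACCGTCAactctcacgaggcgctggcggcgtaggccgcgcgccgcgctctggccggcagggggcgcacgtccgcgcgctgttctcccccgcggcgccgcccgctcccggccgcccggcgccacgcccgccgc
Prdx1: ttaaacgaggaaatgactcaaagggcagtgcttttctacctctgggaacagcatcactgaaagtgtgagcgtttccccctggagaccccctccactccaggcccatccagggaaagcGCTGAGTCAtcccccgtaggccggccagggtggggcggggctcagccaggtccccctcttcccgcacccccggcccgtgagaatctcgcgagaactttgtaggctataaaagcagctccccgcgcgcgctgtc
Nqo1: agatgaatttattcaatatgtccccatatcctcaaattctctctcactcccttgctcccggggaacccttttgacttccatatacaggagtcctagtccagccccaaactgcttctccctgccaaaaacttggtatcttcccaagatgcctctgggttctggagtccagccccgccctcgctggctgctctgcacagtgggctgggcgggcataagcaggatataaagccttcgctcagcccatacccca

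The arrays were not of equal quality, and the challenge was tied to this. Array brightness, taken as the 75th percentile of intensity, was 221 to 337 on the 6 unchallenged arrays, 132, 78.1 and 246 on the BA+DMSO arrays and 109, 74.6 and 108 on the BA+rapamycin arrays. Every value below is a log2 level relative to that percentile of its own array. The BA+DMSO arrays were the least alike, with a correlation across probes of 0.912 between replicates 2 and 3, against at least 0.974 for any pair within another group. Replicate 2 was the dimmest of the 3. All DMSO arrays lay on slide 1 with 1 rapamycin array, and the remaining 8 arrays lay on slide 2, so for the challenge alone the slide and the treatment can hardly be told apart. All 8 contractile smooth muscle markers were well above background on all 12 arrays, as the tissue label calls for, and none of 5 kidney and adrenal markers was so on any array. Of 7 striated muscle markers, Myh6, Tnni3 and Tnnt3 were well above background on all 12 arrays, as were Ahsg and Serpina1a of 5 hepatocyte markers, while Mylpf and Apoa1 were so on none. In whole tissue, fewer cells of a type and less RNA per cell cannot be told apart. Gene levels are compared between arrays only, not between genes, because probes differ in brightness.

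The challenge called part of the gene set lower and none of it higher. With BA+DMSO against DMSO, 2 of the 10 genes were called by limma at an adjusted p under 0.05, Nqo1 and Gstm1, both lower, where 11.0% of all gene names were called lower and 10.4% higher. With BA+rapamycin against rapamycin, 5 of the 10 were called, all lower: Nfe2l2, Nqo1, Gclc, Gclm and Gstm1. Of these, Gclm passed the filter on dim signal only through the unchallenged groups, where it was high. In that comparison 22.9% of all gene names were called lower and 19.8% higher. Groups did not overlap for 4 of the 10 genes in the former comparison, with 35.6% over all gene names, and for 7 in the latter, with 67.8% over all. In either direction 21.4% and 42.7% of all gene names were called, so both counts of calls, like both counts without overlap, lie near the background. The median difference of the 10 genes was -0.42 on the log2 scale in the former and -0.86 in the latter, and over all gene names it was -0.02 and -0.07. With each array's brightness as a covariate, the medians of the 10 genes were -0.05 and -0.12. Without BA+DMSO replicate 2 the median with the challenge and vehicle was -0.17. The difference was below 0 for 9 genes in the former comparison and for 10 in the latter, beside 51.4% and 52.9% of all gene names. The sign of the difference changed under some of the other ways to scale or test the data for Keap1, Txnrd1, Srxn1 and Prdx1 in both comparisons, for Gclm with the challenge and for Gsr with the challenge under rapamycin. None of these differences was a call in the main fit.

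**Figure D1:**
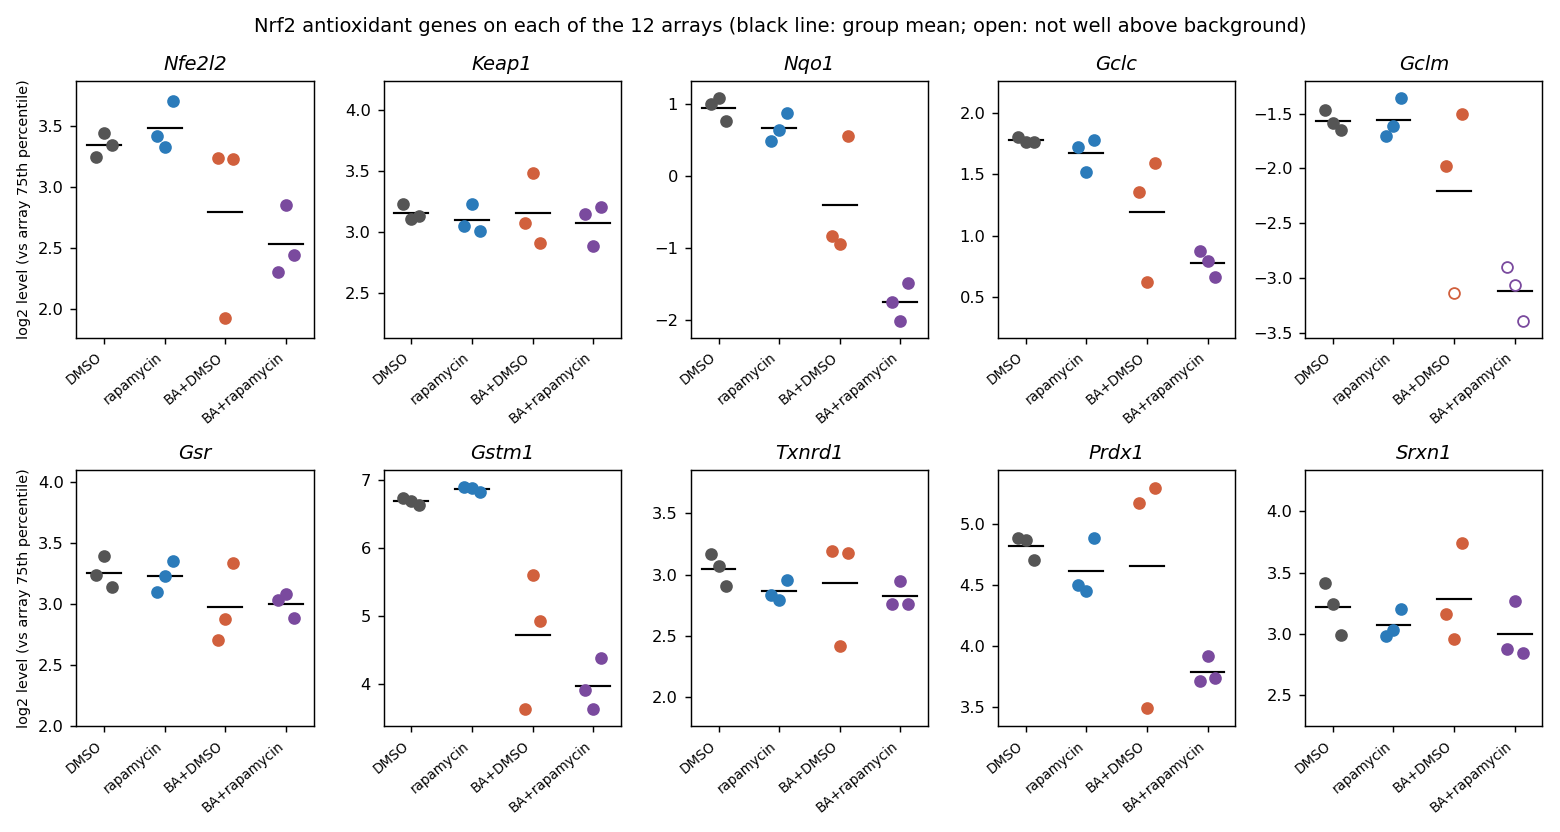
Level of each of the 10 genes on each of the 12 arrays, as log2 signal relative to the array's own 75th percentile, by treatment group. Black lines are group means of 3 mice and open points were not well above background. The BA+rapamycin arrays lie below all rapamycin arrays for Nfe2l2, Nqo1, Gclc, Gclm, Gstm1, Prdx1 and Gsr, while Keap1, Txnrd1 and Srxn1 overlap, and the BA+DMSO arrays are the most spread.

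Nfe2l2, the gene of Nrf2 itself, was measured by a probe at chr2:75513771-75513830 on the minus strand (mm9, as the array files give it). Its level was 3.25, 3.44 and 3.35 on the DMSO arrays, 3.42, 3.33 and 3.71 on the rapamycin arrays, 3.24, 1.93 and 3.23 on the BA+DMSO arrays and 2.30, 2.85 and 2.45 on the BA+rapamycin arrays. The 3 BA+rapamycin arrays were all below the unchallenged ones, while 2 of 3 BA+DMSO arrays sat just under the DMSO range and only replicate 2 was far below it. Nfe2l2 fell by 0.95 on the log2 scale with the challenge under rapamycin, which is 1.94-fold (SE 0.317, adjusted p = 0.0337). That call was lost without any 1 of the 3 rapamycin arrays or without BA+rapamycin replicate 1 or 3, with differences between -1.03 and -0.84 and adjusted p from 0.0589 to 0.112. With the vehicle, its difference was -0.55 (95% interval -1.25 to 0.15, adjusted p = 0.244), and -0.11 without BA+DMSO replicate 2.

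Keap1, the adaptor that targets Nrf2 for breakdown, was not called in any comparison of the main fit. Its mean ± SD over 3 mice was 3.16 ± 0.07 with DMSO and 3.10 ± 0.12 with rapamycin, and 3.16 ± 0.30 in the BA+DMSO mice against 3.08 ± 0.17 in the BA+rapamycin mice. Its difference was 0.00 with the challenge (95% interval -0.40 to 0.40) and -0.02 with the challenge under rapamycin (-0.41 to 0.38). The groups overlapped in both, and these intervals hold changes of up to 0.41 on the log2 scale. The highest Keap1 level of all 12 arrays, 3.48, was on BA+DMSO replicate 2, the array with the lowest Nfe2l2.

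Nqo1, which encodes a quinone reductase and is a classic reporter of Nrf2 activity, fell in both challenge comparisons. Its probe lies at chr8:109912440-109912499 on the minus strand (mm9). Its level was 1.00, 1.08 and 0.76 on the DMSO arrays, 0.49, 0.64 and 0.88 on the rapamycin arrays, -0.83, -0.95 and 0.56 on the BA+DMSO arrays, and -1.76, -2.01 and -1.49 on the BA+rapamycin arrays. The 3 BA+rapamycin arrays were the lowest of the 12, and BA+DMSO replicate 3, the brightest challenged array, was the closest to the controls. Nqo1 fell by 1.36 on the log2 scale with the challenge, which is 2.56-fold (SE 0.344, adjusted p = 0.0198), and by 2.42 with the challenge under rapamycin, which is 5.36-fold (SE 0.344, adjusted p = 0.000831). The former call was lost without DMSO replicate 1, DMSO replicate 2 or BA+DMSO replicate 1, with differences of -1.33, -1.29 and -1.15 and adjusted p of 0.0598, 0.0784 and 0.0778. The latter was kept without any 1 array and within slide 2 alone, where the difference was -2.51 (adjusted p = 0.0194, 2 rapamycin against 3 BA+rapamycin arrays).

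Gclc and Gclm encode the catalytic and the modifier subunit of glutamate-cysteine ligase, the enzyme that limits glutathione synthesis. The Gclc probe lies at chr9:77641296-77641355 on the plus strand. The Gclm probe covers the longer span chr3:121962174-121964809 on the plus strand (both mm9), so its 60 bases cross an intron and read spliced RNA. It is shown because this probe was the only one of the 10 that fell under the background threshold on some arrays.
Gclm probe: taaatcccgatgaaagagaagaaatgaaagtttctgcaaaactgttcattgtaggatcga
The level of Gclc was 1.81, 1.77 and 1.77 on the DMSO arrays, 1.73, 1.52 and 1.79 on the rapamycin arrays, 1.36, 0.62 and 1.59 on the BA+DMSO arrays and 0.87, 0.79 and 0.66 on the BA+rapamycin arrays. Every challenged array was below all arrays of its unchallenged group, and BA+DMSO replicate 3 came closest to them. Gclc fell by 0.90 on the log2 scale with the challenge under rapamycin, which is 1.87-fold (SE 0.226, adjusted p = 0.0107), and its difference with the challenge and vehicle was -0.59 (95% interval -1.09 to -0.09, adjusted p = 0.0884). Leaving out BA+DMSO replicate 1, 2 or 3 gave -0.67, -0.31 and -0.79 for the latter, with adjusted p of 0.116, 0.127 and 0.0156.

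The level of Gclm was -1.47, -1.59 and -1.65 on the DMSO arrays, -1.70, -1.62 and -1.36 on the rapamycin arrays, -1.98, -3.14 and -1.51 on the BA+DMSO arrays and -2.91, -3.07 and -3.39 on the BA+rapamycin arrays. None of the BA+rapamycin arrays and 2 of the 3 BA+DMSO arrays measured it well above background, so for BA+rapamycin there is only an upper bound. Gclm thus passed the filter only through the unchallenged groups, where it was high, so its call is no separate support for a fall. Against the floor of detection, Gclm was at least 2.17-fold lower with the challenge under rapamycin, a bound that was not itself tested. The measured means were -1.56 in rapamycin and -3.12 in BA+rapamycin, and the adjusted p of 0.00566 belongs to their difference. With a model-based background correction the same difference was -0.05 (adjusted p = 0.744). With the challenge and vehicle the difference of Gclm was -0.64 (95% interval -1.38 to 0.11, adjusted p = 0.204), and it was -0.99 (adjusted p = 0.0270) without BA+DMSO replicate 3 and -0.17 (adjusted p = 0.554) without BA+DMSO replicate 2. Gsr, the reductase that returns oxidised glutathione to its working form, gave -0.28 with the challenge (95% interval -0.69 to 0.13) and -0.22 with the challenge under rapamycin (-0.64 to 0.19). Its other probe gave -0.23 and -0.41, and neither probe was called in either comparison. Without BA+DMSO replicate 1, 2 or 3 the difference of Gsr with the challenge was -0.15, -0.24 and -0.47, and only the last was called (adjusted p = 0.0391).

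Gstm1, a Mu-class glutathione transferase that couples glutathione to electrophiles, had the largest falls of the 10 genes. Its name is carried by 2 probes of different sequence, and both fell. The brighter probe stands for the gene here, although the array files place it at chr5:117082490-117082549 on the minus strand, away from Gstm1 on chromosome 3. The other probe lies at chr3:107815595-107815654 on the minus strand (both mm9), and the accession of each belongs to Gstm1 in RefSeq. The first 30 bases of the 60 are shown for both, since the fall does not rest on 1 sequence.
Gstm1 brighter probe: tgttcctggtggaggagcctccccaggcct
Gstm1 other probe: atcgcaacacctatattttcaaagatggcc
The brighter probe read 6.74, 6.69 and 6.63 on the DMSO arrays, 6.90, 6.88 and 6.83 on the rapamycin arrays, 3.64, 5.60 and 4.93 on the BA+DMSO arrays and 3.91, 3.63 and 4.38 on the BA+rapamycin arrays. No challenged array came within 1 log2 unit of an unchallenged one, and here BA+DMSO replicate 2 was the highest of the challenged arrays, unlike for Nfe2l2, Gclc and Gclm. Gstm1 fell by 1.96 on the log2 scale with the challenge, which is 3.90-fold (SE 0.393, adjusted p = 0.00713), and by 2.90 with the challenge under rapamycin, which is 7.45-fold (SE 0.393, adjusted p = 0.000671). The other probe fell by 2.38 (adjusted p = 0.000831) and by 3.77 (adjusted p = 7.46e-05). Both calls of the brighter probe held without any 1 array, and the latter held within slide 2 alone, at -2.88 (adjusted p = 0.0201). Mu-class genes are close copies of each other, so some signal may be shared among their probes.

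In the thioredoxin arm, Txnrd1 (the cytosolic thioredoxin reductase) and Srxn1 (sulfiredoxin, which repairs overoxidised peroxiredoxins) were not called in any comparison of the main fit. The mean ± SD of Txnrd1 over 3 mice was 3.05 ± 0.13 with DMSO and 2.86 ± 0.09 with rapamycin, and 2.93 ± 0.44 in the BA+DMSO mice against 2.82 ± 0.11 in the BA+rapamycin mice. Its difference was -0.12 with the challenge (95% interval -0.58 to 0.35) and -0.04 with the challenge under rapamycin (-0.51 to 0.43). Srxn1 read 3.21 ± 0.22, 3.07 ± 0.11, 3.29 ± 0.41 and 2.99 ± 0.24 in the same order of groups. It gave 0.07 with the challenge (95% interval -0.42 to 0.57) and -0.08 with the challenge under rapamycin (-0.57 to 0.42).

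Prdx1, an abundant peroxiredoxin that removes hydrogen peroxide, divided the challenged arrays. Its brighter probe, at chr4:116371818-116371877 on the plus strand (mm9), read 4.88, 4.87 and 4.70 on the DMSO arrays and 4.50, 4.45 and 4.89 on the rapamycin arrays. The BA+DMSO arrays read 5.17, 3.50 and 5.29, and the BA+rapamycin arrays 3.72, 3.92 and 3.74. On this probe BA+DMSO replicates 1 and 3 were thus above all unchallenged arrays, and replicate 2 lay below every other array. Without replicate 2 its difference with the challenge was 0.41 (adjusted p = 0.0820), but that of the other probe was 0.03 (adjusted p = 0.927). On the other probe replicate 1 read 1.14, below all DMSO arrays, and replicate 2 was not the lowest array. The difference of the brighter probe was -0.16 with the challenge (95% interval -1.01 to 0.68) and -0.82 with the challenge under rapamycin (-1.67 to 0.02, adjusted p = 0.105). The other probe, at chr4:116372422-116372481 on the plus strand, fell by 0.77 with the challenge under rapamycin (adjusted p = 0.0353), so the 2 probes had like differences on different sides of the threshold. Without BA+DMSO replicate 2 the brighter probe was called as well, at -0.82 (adjusted p = 0.00138).

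**Figure D2:**
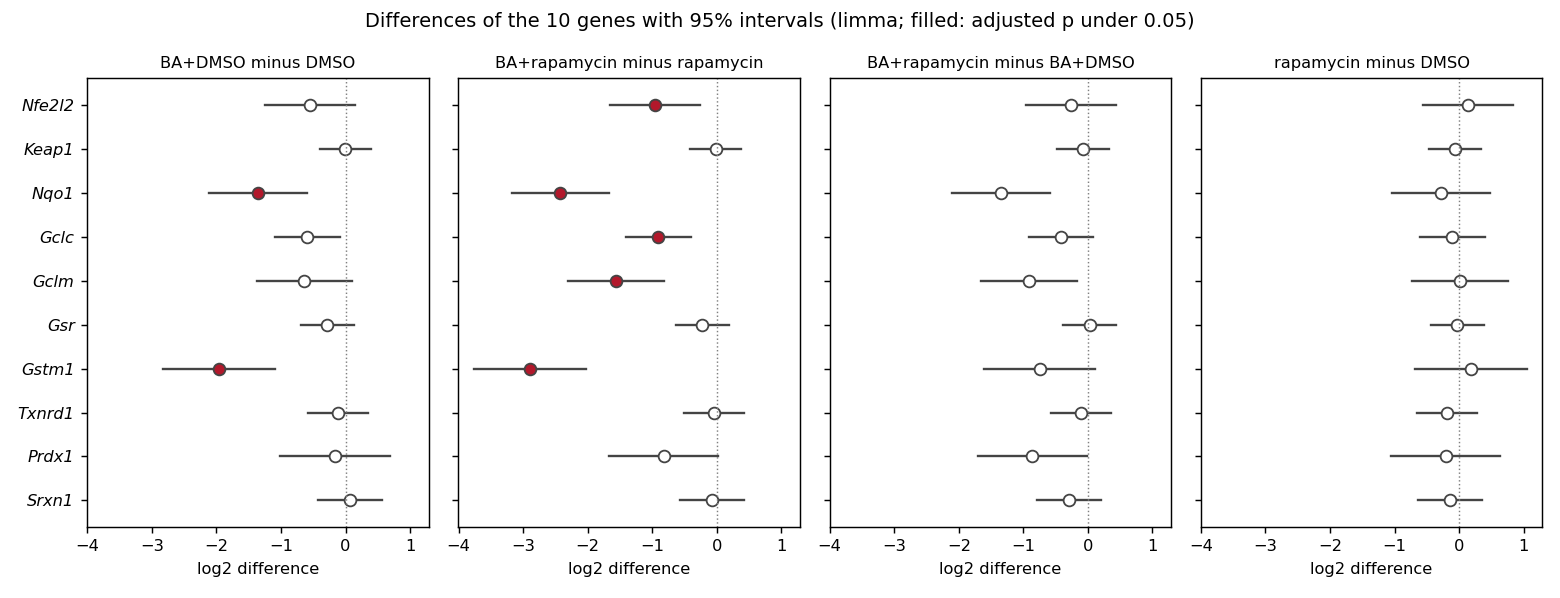
Log2 differences of the 10 genes in 4 comparisons with 95% intervals from limma, filled where the adjusted p was under 0.05. Filled points are Nqo1 and Gstm1 for BA+DMSO minus DMSO and Nfe2l2, Nqo1, Gclc, Gclm and Gstm1 for BA+rapamycin minus rapamycin, all below 0, with none in the comparisons of rapamycin with vehicle.

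Rapamycin without the challenge gave no call. With rapamycin against DMSO, limma called 0 of the 10, and 0.00499% of all gene names were called. At an unadjusted p under 0.05 the count was also 0, beside 4.43% of all gene names. The differences ran from -0.28 for Nqo1 to 0.19 for Gstm1, with a median of -0.08. By the probe that stands for each gene, only the groups of Gstm1 did not overlap, where 22.4% of all gene names did not. The other probe of Prdx1 did not overlap either, at -0.25. The interval of Nqo1 ran from -1.03 to 0.48 on the log2 scale, and that of Nfe2l2 from -0.56 to 0.84.

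Under the challenge, rapamycin against vehicle gave lower values for 9 of the 10 genes (51.8% over all gene names) but no call in the main limma fit. The count was 0 of 10 after adjustment, where 0.305% of all gene names were called, 0.240% as lower. At an unadjusted p under 0.05 it was 3 of 10 by the probe that stands for each gene, beside 20.5% of all gene names. Nqo1 differed by -1.34 (95% interval -2.10 to -0.59, adjusted p = 0.102), Gclm by -0.91 (-1.66 to -0.17, adjusted p = 0.196) and Prdx1 by -0.86 (-1.71 to -0.02, adjusted p = 0.243). No BA+rapamycin array and 2 of the 3 BA+DMSO arrays measured Gclm well above background. Against the floor of detection Gclm was at least 1.39-fold lower here. All 6 arrays of this comparison lay on slide 2. Nqo1 was the only 1 of the 10 whose groups did not overlap, where 14.9% of all gene names did not. With array weights and all arrays kept, limma called 5 of the 10 lower, a fit to which the shares above do not apply. The share of all gene names called in that fit is not given here. The count is therefore not read as a result about the 10 genes. This comparison also turned on BA+DMSO replicate 2. Without it, which was chosen as a check with the values known, 5 of the 10 were called lower, where in that fit 24.0% of all gene names were called lower and 17.0% higher: Nfe2l2 at -0.70 (adjusted p = 0.0161), Nqo1 at -1.62 (0.00788), Gclc at -0.70 (0.00597), Gclm at -1.38 (0.00262) and Prdx1 at -1.44 (0.00160). The value of Gclm rests on a low side that no BA+rapamycin array measured well above background, and against the floor of detection it was at least 1.92-fold lower in that fit. The other probe of Gstm1 gave -1.13 with all arrays (adjusted p = 0.117). Without BA+DMSO replicate 2 that probe gave -1.06 (adjusted p = 0.0369), while the brighter probe went from -0.75 to -0.31 (adjusted p = 0.467).

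Whether rapamycin changed the effect of the challenge was tested by the interaction, which is the difference between the 2 challenge comparisons. It was called for 0 of the 10 genes, and for 0% of all gene names. At an unadjusted p under 0.05 it was also 0 of 10 by the probe that stands for each gene, beside 6.01% of all gene names. The other probe of Gstm1 had an unadjusted limma p of 0.00837. The nearest were Nqo1 at -1.07 (95% interval -2.14 to 0.00, adjusted p = 0.737), Gstm1 at -0.93 (-2.16 to 0.29, with -1.39 and an adjusted p of 0.685 on its other probe) and Gclm at -0.92 (-1.97 to 0.13). The larger number of calls under rapamycin is therefore not shown to differ from that with vehicle. Without BA+DMSO replicate 2 the interaction was called for Gclm (-1.39, adjusted p = 0.0316, with BA+rapamycin levels under the background threshold) and Prdx1 (-1.24, adjusted p = 0.0272), where 7.41% of all gene names were called lower and 3.79% higher.

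**Figure D3:**
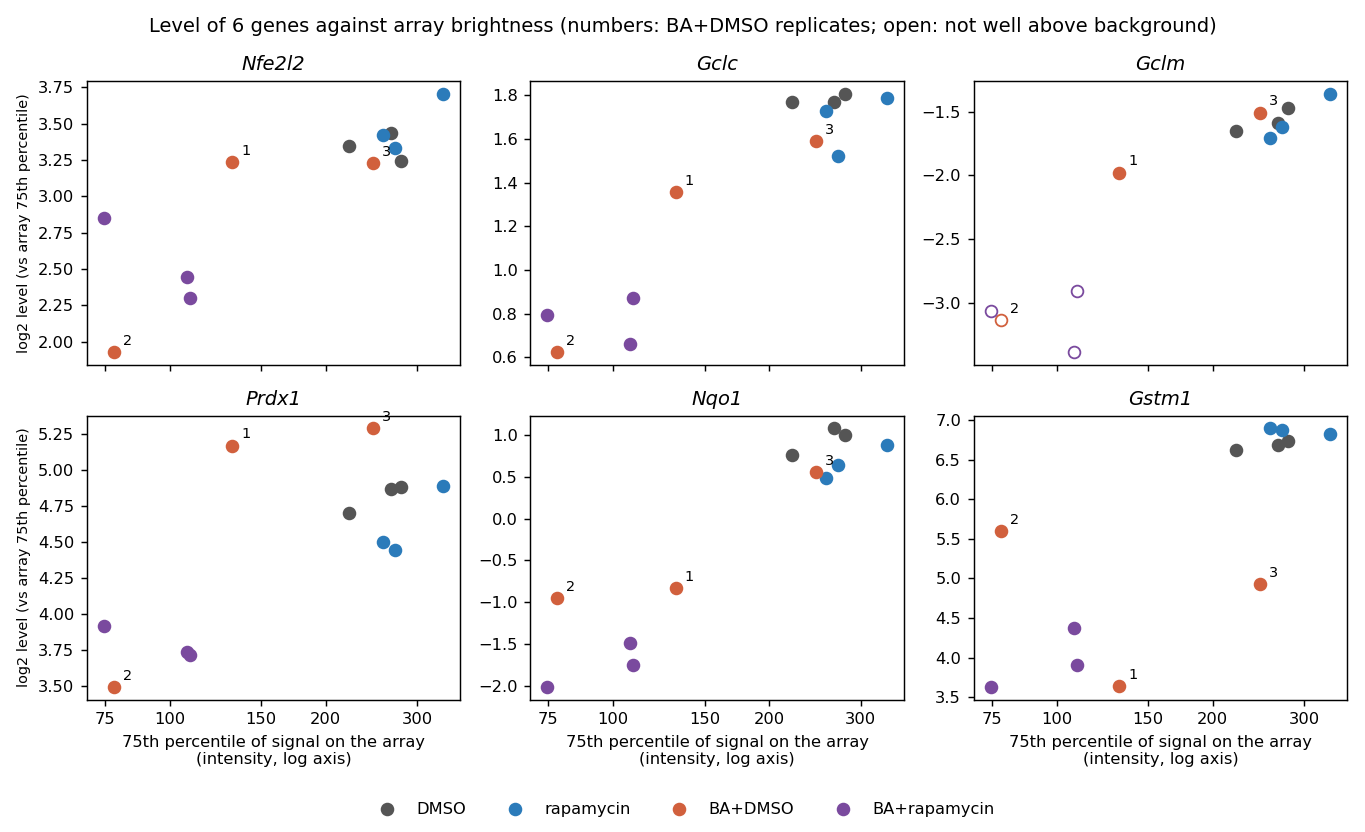
Level of 6 genes (log2 signal relative to the array's 75th percentile) against array brightness (75th percentile of intensity, log axis), coloured by group, with the BA+DMSO replicates numbered and open points not well above background. Gclc, Gclm and Nqo1 are lowest on dim arrays, BA+DMSO replicate 3 at 246 lies near the unchallenged arrays for these genes, and Gstm1 is low on all 6 challenged arrays, bright or dim.

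Within groups, the 10 genes varied most in BA+DMSO. The median SD over the 10 genes was 0.63 there, against 0.10 with DMSO, 0.14 with rapamycin and 0.20 in the BA+rapamycin mice. Over all gene names it was 0.49, 0.15, 0.16 and 0.21 in that order. The main fit uses 1 estimate of the spread per probe for all 4 groups. Its SE and adjusted p therefore do not measure the larger spread of BA+DMSO by itself. BA+DMSO replicate 2 was the lowest of its group for 7 of the 10 genes and replicate 3 the highest for 6. Deviations from the group mean ran together for Txnrd1 and Prdx1 (r = 0.97), Gclc and Gclm (r = 0.96) and Nfe2l2 and Prdx1 (r = 0.96), and opposite for Nfe2l2 and Keap1 (r = -0.92). These are descriptions over 12 arrays that rest mostly on the 3 BA+DMSO arrays and share each array's scaling and brightness. Across the 45 pairs of genes the median r was 0.54.

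Brightness moved with the challenge, and a fit with each array's brightness as a covariate, added with the results known, gave other counts. Called genes went from 2 to 1 with the challenge, namely Gstm1, and from 5 to 1 with the challenge under rapamycin, again Gstm1, at -3.17 (adjusted p = 0.0357). Under that covariate, Nqo1 gave -0.54 (adjusted p = 0.110) and -0.99 (adjusted p = 0.0782) in the 2 comparisons, and Nfe2l2, Gclc and Gclm gave -0.09, -0.15 and -0.26 with the challenge under rapamycin. Prdx1 changed sign there, to 0.57 (adjusted p = 0.493). With the slide as a fixed term, no gene of the 10 was called with the challenge, where Nqo1 gave -1.63 (adjusted p = 0.405) and Gstm1 -1.92 (adjusted p = 0.393). Within slide 2 alone, Nqo1 and Gstm1 of the 5 were called with the challenge under rapamycin, while Nfe2l2, Gclc and Gclm gave -0.99, -0.88 and -1.63, with adjusted p of 0.135, 0.0933 and 0.0512. Brightness and challenge cannot be told apart in these arrays beyond what these fits show.

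Around the 10 genes, lists of 106 other genes of the pathway were described, of which 98 were tested. The challenge called 8 of them higher and 15 lower, where 10.4% and 11.0% of all gene names were. The challenge under rapamycin called 11 higher and 37 lower, where 19.8% and 22.9% of all gene names were. Rapamycin under challenge called 2 lower, where 0.240% of all gene names were. Rapamycin alone called none, where 0.00499% of all gene names were called. The median difference over the 98 genes was -0.15 with the challenge and -0.42 with the challenge under rapamycin.

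The genes whose proteins pair with, regulate or degrade Nrf2 had calls in both directions. Of 19 tested, 2 were higher and 2 lower with the challenge, where 10.4% and 11.0% of all gene names were. With the challenge under rapamycin 3 were higher and 8 lower, where 19.8% and 22.9% of all gene names were. Among the small Maf partners, Maff rose by 0.95 with the challenge (adjusted p = 0.0462), Mafk fell by 1.44 with the challenge under rapamycin (adjusted p = 0.00279), and Mafg gave -0.14 and -0.06 in these comparisons. Nfe2, a relative of Nrf2 best known from blood cells, rose by 1.28 with the challenge (adjusted p = 0.00760) where 2 of the 3 DMSO arrays measured it well above background. Nfe2 passed the filter only through BA+DMSO, the group where it was high, so its call is no separate support for a rise. Btrc, an F-box protein that marks Nrf2 for breakdown apart from Keap1, fell by 1.44 with the challenge (adjusted p = 0.00240) and by 1.35 with the challenge under rapamycin (adjusted p = 0.00200), while its other probe gave -0.03 and 0.04. Sqstm1, the p62 protein that can sequester Keap1, fell by 1.31 with the challenge under rapamycin (adjusted p = 0.00137), but its other, dimmer probe gave 0.78 (adjusted p = 0.0996). Bach1, a repressor at the same elements, gave -0.17 and -0.04, and Cul3 gave -0.26 and -0.47 (adjusted p = 0.0519), in the 2 challenge comparisons.

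The glutathione list held the other Mu-class transferases, in which Gstm1 has its nearest relatives. Of 33 tested, 1 was higher and 5 lower with the challenge, where 10.4% and 11.0% of all gene names were. With the challenge under rapamycin 2 were higher and 14 lower, where 19.8% and 22.9% of all gene names were. Gstm4 fell by 1.61 (adjusted p = 0.00165) and by 3.07 (adjusted p = 6.60e-05) in the 2 challenge comparisons, though by its other probe only -0.23 (adjusted p = 0.666) and -1.28 (adjusted p = 0.0136). Gstm3 fell by 2.79 with the challenge under rapamycin (adjusted p = 6.60e-05), and its levels ran from 3.73 to 3.88 on the rapamycin arrays and from 0.80 to 1.29 on the BA+rapamycin arrays. Gstm7 was at least 4.79-fold lower there, a bound given since all 3 BA+rapamycin arrays missed the background threshold. Its adjusted p of 0.00176 belongs to the measured difference of -2.78, not to the bound. Gstm7 fell by 1.97 with the challenge (adjusted p = 0.0149), with 1 of 3 BA+DMSO arrays well above background. Among the 7 Mu-class genes including Gstm1, grouped after the values were seen and so no support for a family pattern, 7 were called lower with the challenge under rapamycin and 4 with the challenge, where 22.9% and 11.0% of all gene names were. That count includes Gstm7, which passed the filter through the unchallenged groups. Gstm3 (-1.42, adjusted p = 0.0298) and Gstm6 (-1.20, adjusted p = 0.0257) were the 2 pathway genes called lower with rapamycin under challenge, where 1 of the 3 BA+rapamycin arrays measured Gstm6 well above background. Gstk1, the kappa-class transferase of mitochondria and peroxisomes, fell by 1.68 with the challenge (adjusted p = 0.00202). Not every glutathione gene was lower, since Gpx1, the main cytosolic glutathione peroxidase, gave 0.29 and -0.20. Slc7a11, the cystine importer and another classic Nrf2 target, was too dim to be tested.

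**Figure D4:**
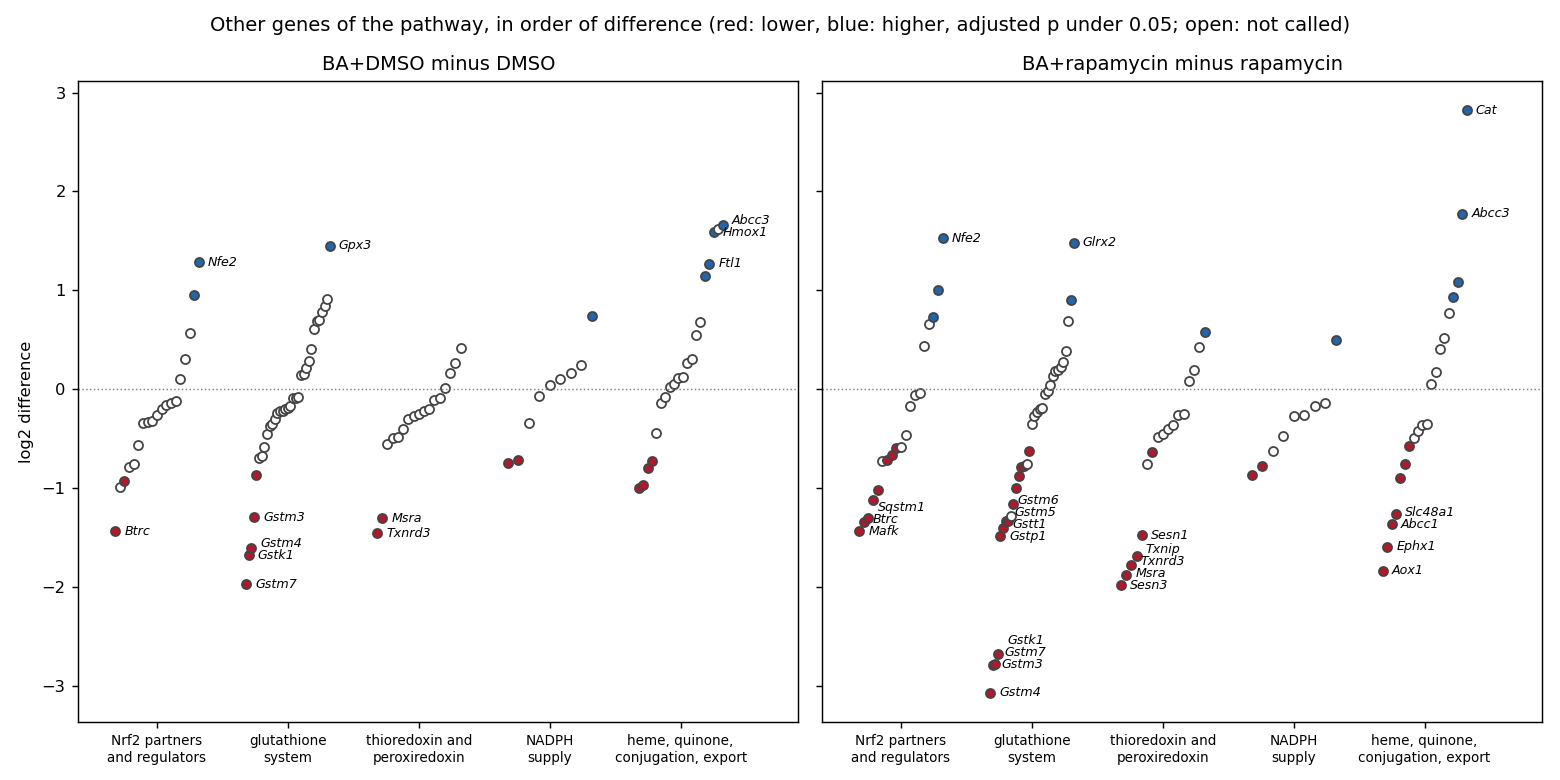
Log2 differences of the 98 other pathway genes, by list and in order of size, for the challenge with vehicle and with rapamycin, red where called lower and blue where called higher at an adjusted p under 0.05. Calls go both ways in each list but the thioredoxin list under the challenge with vehicle, and the Mu-class transferases Gstm4 and Gstm3 lie lowest at -3.07 and -2.79 with BA+rapamycin minus rapamycin. Gstm7 is drawn there at its measured value, although no BA+rapamycin array detected it above the threshold.

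In the thioredoxin and peroxiredoxin list, 2 of 17 were lower and none higher with the challenge, where 11.0% and 10.4% of all gene names were. With the challenge under rapamycin 6 were lower and 1 higher, where 22.9% and 19.8% of all gene names were. Txnrd3, a thioredoxin reductase best known from testis, fell by 1.46 (adjusted p = 0.00167) and by 1.78 (adjusted p = 0.000385). Msra, which repairs oxidised methionine, fell by 1.31 (adjusted p = 0.0105) and by 1.88 (adjusted p = 0.00111). Sesn3, a sestrin, fell by 1.99 with the challenge under rapamycin (adjusted p = 0.00286). Txnip, the inhibitor of thioredoxin, read 3.43, 3.15 and 3.99 on the DMSO arrays and 4.16, 4.39 and 4.73 on the rapamycin arrays, with no overlap but no call (0.90, adjusted p = 1). It fell by 1.69 with the challenge under rapamycin (adjusted p = 0.00415), while Txn1, thioredoxin itself, gave -0.40 (adjusted p = 0.303). Of the 9 genes that supply NADPH, the reductant of all these systems, Pgd rose by 0.74 with the challenge (adjusted p = 0.0147), and Me1 and Rpia fell by 0.72 (adjusted p = 0.0182) and 0.74 (adjusted p = 0.0396). The same 3 were the only NADPH genes called with the challenge under rapamycin, in the same directions. Of the 2 other probes of Me1, 1 was called lower in both comparisons (-0.77 and -0.93). The remaining probe of Me1 gave 0.12 and 0.30 without a call. G6pdx gave 0.16 and -0.27 in these comparisons. The call of Rpia with the challenge was lost without BA+DMSO replicate 2 (adjusted p = 0.0611).

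The list of heme, quinone and conjugation enzymes and exporters had calls in both directions. Of 20 tested, 4 were higher and 4 lower with the challenge, where 10.4% and 11.0% of all gene names were. With the challenge under rapamycin 4 were higher and 7 lower, where 19.8% and 22.9% of all gene names were. Hmox1, heme oxygenase 1, which breaks down heme, read 0.34, 0.14 and 0.08 on the DMSO arrays, 0.47, 0.23 and 0.38 on the rapamycin arrays, 2.43, 0.74 and 2.14 on the BA+DMSO arrays and 0.97, 1.12 and 1.32 on the BA+rapamycin arrays. It was higher on every challenged array, and BA+DMSO replicate 2 was again the lowest of its group. Hmox1 rose by 1.58 with the challenge, which is 3.00-fold (adjusted p = 0.0114), and differed by 0.77 with the challenge under rapamycin (adjusted p = 0.0954). Its other probe rose by 1.21 with the challenge (adjusted p = 0.0122). Ftl1, the ferritin light chain, rose by 1.27 (adjusted p = 0.00122), and the exporter Abcc3 rose by 1.66 (adjusted p = 0.00219) and by 1.77 (adjusted p = 0.00100). Cat, catalase, rose by 2.82 with the challenge under rapamycin on its brighter probe (adjusted p = 0.00731), while its other probe gave -0.24 (adjusted p = 0.341). Aox1, an aldehyde oxidase, fell by 1.84 there (adjusted p = 0.00107).

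Leaving out BA+DMSO replicate 2 raised the counts of these lists for rapamycin under challenge, beside the 24.0% lower and 17.0% higher of all gene names in that fit. Lower calls went from 2 of 33 to 17 in the glutathione list, with 2 higher, and from 0 to 9 of 17 in the thioredoxin list, with 0 higher. They went from 0 to 7 of 9 in the NADPH list, with 0 higher, from 0 to 14 of 20 in the heme and quinone list, with 1 higher, and from 0 to 5 of 19 among Nrf2 partners, with 3 higher. With the challenge, the same omission gave 5 higher and 6 lower in the glutathione list, 2 higher and 3 lower in the thioredoxin list and 8 higher and 4 lower in the heme and quinone list, where 14.8% of all gene names were called higher and 13.7% lower. With the challenge under rapamycin it gave 26.8% of all gene names higher and 31.5% lower, and in the lists 5 higher and 11 lower among Nrf2 partners and 2 higher and 9 lower in the thioredoxin list. Hmox1 with rapamycin under challenge went from -0.64 (adjusted p = 0.305) to -1.15 (adjusted p = 0.00254), and its difference of 0.77 with the challenge under rapamycin passed the test without that array (adjusted p = 0.00190).

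Markers of other cells were called with the challenge as well. Over all gene names 10.4% were called higher and 11.0% lower with the challenge. With the challenge under rapamycin these shares were 19.8% and 22.9%. Of 9 macrophage markers, 8 were called higher with the challenge and 6 with the challenge under rapamycin. Their summed level, relative to the 75th percentile, was 111 to 141 with DMSO, 122 to 145 with rapamycin, 191 to 492 in the BA+DMSO mice and 379 to 506 in the BA+rapamycin mice. All 4 proliferation markers were higher in both, with sums of 0.633 to 0.708, 0.262 to 0.362, 6.41 to 29.4 and 5.65 to 7 in the same order. Cdk1 and Top2a were well above background on no unchallenged array. They and Ccnb1 passed the filter only through challenged groups, and the unchallenged sums include probes under the background threshold. Red cell markers were called higher too, 4 of 4 and 3 of 4, with sums of 18.1 to 84.2, 80.5 to 187, 114 to 234 and 309 to 350.1. Of 8 contractile smooth muscle markers, 1 was lower with the challenge and 3 lower and 1 higher with the challenge under rapamycin, with sums of 2858 to 3080, 2598 to 3060, 2460 to 4837 and 3484 to 4522. Without BA+DMSO replicate 2, 4 of the 8 were lower with the challenge and 3 were higher with rapamycin under challenge. Neutrophil markers were called higher for 2 and 1 of the 4 tested, and Cxcr2 was well above background on no array. The sums of the 4 white fat markers tested ran from 1.2 to 5.59 on unchallenged and from 3.53 to 27.4 on challenged arrays with no call. Among endothelial markers, Kdr and Emcn were called higher with the challenge (1.28 and 1.40), and under rapamycin Kdr was higher (1.73) and Pecam1 and Tek were lower (-0.87 and -0.99). Of 6 fibroblast markers, Col1a1 was called higher with the challenge (0.99), and Col1a1 (1.57) and Pi16 (1.66) with the challenge under rapamycin, where Dpt, Dcn and Pdgfra gave -0.54, -0.42 and -0.41. Of 3 brown fat markers, Ucp1 was higher with the challenge (adjusted p = 0.0143), with none of the DMSO arrays well above background. Ucp1 passed the filter only through BA+DMSO, the group where it was high. With the challenge under rapamycin Cidea was lower by 2.61 (adjusted p = 0.00382) and Cpt1b higher by 1.73 (adjusted p = 0.0129). The sums of the 3 ran from 10.4 to 18.2 on unchallenged arrays, from 6.38 to 17 in the BA+DMSO mice and from 1.61 to 5.94 in the BA+rapamycin mice. The striated muscle gene Myh6 was not called in either challenge comparison (-2.28 and 2.66) with all arrays, but was in both without BA+DMSO replicate 2 (-4.07, adjusted p = 0.0182, and 2.66, adjusted p = 0.0327). With rapamycin under challenge it differed by 3.08 (adjusted p = 0.244), or by 4.87 without BA+DMSO replicate 2 (adjusted p = 0.00762). The hepatocyte gene Ahsg was higher by 0.76 with the challenge (adjusted p = 0.0484) and lower by 1.09 with the challenge under rapamycin (adjusted p = 0.00652). The former call was lost without BA+DMSO replicate 2, at 0.58 (adjusted p = 0.0967). The part of these cells in the differences of the 10 genes was not tested.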

How the data were processed

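RNA of 12 aortas was read on 1-colour Agilent mouse arrays, 1 per mouse. The authors deposited each array's scanner output, whose processed intensity is background-subtracted per the file headers (Feature Extraction 10.7.1.1, while the submitters' processing notes name 9.5.1.1 and the build is mm9). The well-above-background and outlier flags, the other values used, are also those of the deposited scanner output. The deposited value table, a linear intensity with a median of 17.1 on every array, matched quantile normalization of the scanner values (r = 0.99994) and served as an alternative. Its values were taken to log2 here, not by the authors. Each of 62976 spots was kept unless it was one of 3671 controls or flagged as an outlier, no spot was saturated, and replicate spots were averaged by probe. Log2 values minus the array's 75th percentile were the level. A probe was tested where at least 0.5 of its spots were well above background on all 3 arrays of 1 group, which left 27801 of 55681 probes. One model in limma 3.58.1 (R 4.3.3) with 4 groups gave the differences, with p-values adjusted by Benjamini-Hochberg within each of 5 contrasts over all tested probes, and a call is an adjusted p under 0.05. The comparisons share groups, and a gene stands by its probe with the highest mean. Where no array of a group was well above background, the dim group was set to the lowest detected signal of each array and the fold is a bound. The code was checked on simulated data. The number of arrays limits the precision.

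The members and lists were chosen with earlier results of these data known. Besides the 10 members, the text names from each list and contrast the 3 called genes with the largest difference whose groups did not overlap and whose higher group was detected on all its arrays, and 10 genes given in advance (Hmox1, Slc7a11, Txn1, Txnip, Gpx1, G6pdx, Mafg, Bach1, Cul3 and Sqstm1). Of these, the Mu-class relatives of Gstm1 were grouped after seeing the values. The alternatives tried were other scalings, background correction, filters, probe rules, slide and title-date terms, variance models, array weights, the study's call rule and each array left out. The brightness covariate and the list counts without BA+DMSO replicate 2 were added after seeing the data. Probe positions are those of the files in mm9, and whether a probe lies in an exon or a UTR was not determined here. Accessions of all 13 member probes matched their gene in RefSeq.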

Additional observations from a re-analysis of the deposited data

How the results depend on the processing

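No call changed direction in 207 recalculations of the called differences, and 178 kept their side of the threshold. Part of these recalculations leave the difference as it was, so its direction could not change. They are arrays dropped from groups outside the comparison, only the arrays of the 2 groups, no filter, the other variance model and the study's call rule. The tally is therefore no measure of how firm the direction is. With the challenge, 2 of the 10 genes were called, against 0 with only the arrays of the 2 groups, 0 with the slide as a fixed term, 4 with array weights (Gclc and Gsr added), 1 with array brightness as a covariate and 0 by the call rule in the study's methods (a raw p below 0.01 with over 4-fold change). Leaving out 1 array gave 1 to 5, with 5 without BA+DMSO replicate 3 and 1 without DMSO replicate 1 or 2 or BA+DMSO replicate 1. With rapamycin under challenge 0 were called, against 5 with array weights, and 0 to 5 with 1 array left out, the 5 being without BA+DMSO replicate 2. With the challenge under rapamycin 5 were called, against 2 within 1 slide, 1 with array brightness as a covariate and 2 by the study's call rule, and 4 to 6 with 1 array left out. The count there was 7 with normexp background correction and 6 with array weights or with only the arrays of the 2 groups. For the interaction 0 were called, against 2 with array weights and 0 to 2 with 1 array left out. For rapamycin alone the count was 0 in all 31 alternatives run. The cause was not tested for any of these. Fits that drop arrays also have fewer samples, and the share of all gene names called can differ between fits.

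Under the challenge with rapamycin, Gstm1 kept its call in 30 of 30 alternatives, Nqo1 in 29 of 30, Gclc in 27 of 30, Gclm in 25 of 29 and Nfe2l2 in 19 of 30, with Nfe2l2 between -1.25 and -0.09. Counts of this kind include the alternatives that leave the difference unchanged. Under the challenge alone, Gstm1 kept its call in 26 of 29 and Nqo1 in 22 of 29. Without the filter on dim probes the median of all probes moved to 0.43 with the challenge and 0.85 with the challenge under rapamycin, so differences on that scale are to be read against those medians. Within 1 slide no value could be had for the challenge or the interaction. No paired analysis was possible because the replicate numbers only follow the order of deposit and the groups hold different mice. With the date in the sample titles as a random block (estimated correlation 0.496), the counts were 2, 0, 0, 5 and 0 in the order challenge, rapamycin under challenge, rapamycin alone, challenge under rapamycin and interaction, as in the main results, and rapamycin alone within the shared title date gave 0. Signal over background limits Gclm and Gstm7, whose low side is a bound.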
